A study of Sus scrofa with 6 samples.

Results

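The genes described here are the solute carriers, the membrane proteins that move nutrients, metabolites, vitamins and ions across the plasma membrane and the membranes of organelles, measured in preovulatory ovarian follicles of 2 pig breeds. Members were the probe sets of the Affymetrix porcine array with exactly 1 gene symbol, of the SLC form followed by a family number, the letter A and a member number, or beginning with SLCO, and whose signal exceeded 50 on 3 or more arrays of 6. The symbol part of the rule matched 171 probe sets of 114 genes, and 142 probe sets of 102 genes in 36 families passed the signal level, among 19196 probe sets of any gene that did so. The tested probe sets with 1 symbol covered 6322 genes. The other 29 probe sets stayed below this level, and for 12 of the 114 genes none passed. Breed was not used to choose members. A further 13 probe sets of SLC genes written with another letter (SLC35B1, SLC35F5, SLC8B1 and the like) and 5 with several symbols lie outside the rule. The rule also takes in SLC2A4RG, SLC9A3R1 and SLC9A3R2, which are regulators or scaffolds and not carriers, and leaving them out left 139 probe sets.

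Follicle RNA came from 3 Large White and 3 Chinese Erhualian sows, 1 sow per array, the latter called Chinese Taihu in the paper. All 6 were multiparous, received 1000 IU PMSG, which acts like FSH, and 80 h later 500 IU hCG, which acts like LH, and were killed 30 to 38 h after hCG. No untreated sows were part of the design. Each breed came from its own farm, so breed and farm cannot be told apart. Values are the authors' normalized signal intensities on a linear scale. Differences are Chinese Erhualian minus Large White on the log2 scale, and the number of arrays limits their precision.

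Ovulatory follicles live on carriers of several kinds. Glucose enters granulosa cells through SLC2 proteins, and lactate and pyruvate pass through SLC16 proteins. Amino acids are brought in by sodium-coupled carriers or exchanged by heterodimers of an SLC7 and an SLC3 protein. Carriers of the SLC25 family link cytosol and mitochondria, where steroid synthesis begins, and the SLC30 and SLC39 families move zinc in opposite directions.

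Markers of epithelium, granulosa, theca and leukocytes differed widely between the sows, and their part in the carrier signals was not tested. The array of Chinese Erhualian sow 1 had correlations of 0.834 to 0.887 with the other arrays, across the tested probe sets, which are not independent. All 10 epithelial markers with a probe set, of 12 listed, were highest there, and their summed signal was 46824 against 1859 to 8650 in the other sows. Of 9 granulosa markers, 2 were highest in this sow, and the list summed to 1932 against 11575 to 16925. INHA, FST and NR5A2, the brightest of the list, were lowest in this sow (446, 174 and 84.3), as was FSHR. CYP19A1 and INHBA were the highest ones, and INHBB, AMH and FOXL2 lay within the range of the other sows. The sum of 6 theca and steroid synthesis markers was 335 in this sow, 36426 in Large White sow 1, 42532 in Chinese Erhualian sow 2 and 6548 to 12907 in the others. Leukocyte markers (8 of 10 with a probe set) summed to 13038 in Large White sow 2, where 7 of the 8 were highest, and to 2283 to 4339 elsewhere. No marker with a probe set in these 4 lists was at or below 50 on all arrays. Lists of other cell types differed less in their sums. These ran from 3420 to 4776 for endothelial and from 11145 to 17538 for smooth muscle markers. For oocyte markers they ran from 616 to 1001, and for red blood cell markers from 478 to 919. In bulk follicle RNA, fewer cells of a type and less RNA per cell cannot be told apart.

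No carrier differed between the breeds past correction. At an adjusted p below 0.05 (limma, Benjamini-Hochberg over all 19196 probe sets), 0 of the 142 carrier probe sets were called, against 0.0208% of all probe sets, and the lowest adjusted p among them was 0.993. Without adjustment (limma p of at most 0.05), Chinese Erhualian sows had 2 members higher and 4 lower. These are 1.41% and 2.82% of the members, near the 1.56% and 2.30% of all tested probe sets. Their median log2 difference was 0.03, with 76 above and 66 below 0, and that of all tested probe sets was 0.00. Signals of the 3 sows of each breed lay apart, without overlap, for 7 members on the higher side (4.93%, background 3.98%) and 6 on the lower side (4.23%, background 5.12%). The methods' t-test, unpaired and 2-sided, gave 4 higher (2.82%, background 1.81%) and 2 lower (1.41%, background 2.59%), with 0 after adjustment. The 6 became 3 without Large White sow 1 (1 higher and 2 lower, 2.11% against 3.52% of all tested probe sets) and 3 without Large White sow 2 (2 higher and 1 lower, 2.11% against 1.94%). They became 4 without Chinese Erhualian sow 1 (1 higher and 3 lower, 2.82% against 3.66%), 5 without Chinese Erhualian sow 2 (1 higher and 4 lower, 3.52% against 6.38%) and 9 without Chinese Erhualian sow 3 (6 higher and 3 lower, 6.34% against 4.28%). Without Large White sow 3 they became 7 (3 higher and 4 lower, 4.93%), where the share of all tested probe sets was not counted. The balance of higher and lower thus turned without Large White sow 2 and without Chinese Erhualian sow 3. It also turned with all sows kept, under the methods' t-test.

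SLC37A4, which carries glucose 6-phosphate into the endoplasmic reticulum, had both of its probe sets on the lower side. On one of them the normalized signals of Large White sows 1 to 3 were 687, 638 and 586, and those of Chinese Erhualian sows 1 to 3 were 412, 354 and 268. Every Chinese Erhualian sow lay below every Large White sow, with means of 637 ± 50.4 (SD) and 345 ± 72.6. The log2 difference was -0.90 (SE 0.22, adjusted p = 0.993), and -1.04 without Chinese Erhualian sow 1. On the other probe set the signals were 454, 366 and 385 against 333, 281 and 261, again without overlap. The log2 difference there was -0.46 (SE 0.19, adjusted p = 0.993). For each probe set the exact permutation p was 0.1, 2-sided, the smallest that 3 arrays against 3 can give.

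SLC6A4, the serotonin transporter of the plasma membrane, had the widest range of all member genes, 5.31 on the log2 scale with signals under 50 set to 50. Its signals were 246, 1989 and 996 in the Large White sows, against 34.9, 92.0 and 434 in the Chinese Erhualian sows. The breeds overlapped, since Chinese Erhualian sow 3 lay above Large White sow 1. The ratio of the means was 0.173, the log2 difference -2.82 (SE 1.10, adjusted p = 0.993) and the exact permutation p 0.2. Without Chinese Erhualian sow 1, the sow with the lowest signal, it was -1.98. SLC6A4 was the 1 member with an unadjusted limma p of at most 0.05 and a ratio of at most 0.5 or at least 2 (0.704%, background 0.953%). The paper lists this probe set among transcripts it chose on these samples, so its direction is not independent evidence. The paper's cutoff was a t-test p of at most 0.05, whereas the methods' t-test gave p = 0.11 for this probe set on the deposited values.

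SLC22A3, a carrier of organic cations and monoamines, had signals of 124, 183 and 122 in the Large White breed against 42.0, 77.3 and 116 in the Chinese Erhualian breed. The breeds did not overlap, but Chinese Erhualian sow 3 lay close to the lower Large White values. The log2 difference was -0.96 (SE 0.39, adjusted p = 0.993), and -0.57 without Chinese Erhualian sow 1. SLC22A3 and SLC6A4, which both clear monoamines from the outside of cells, had their lowest signal in Chinese Erhualian sow 1. This match was picked after the values were seen, and many members of other classes were lowest there too. The share of all probe sets lowest in this sow was not counted.

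On the higher side stood a copper and an acetyl-CoA carrier. SLC31A1, which takes up copper, had signals of 761, 936 and 792 in the Large White breed against 1174, 1131 and 1075 in the Chinese Erhualian breed on one probe set. The lowest Chinese Erhualian sow exceeded the highest Large White sow (log2 0.45, SE 0.18, adjusted p = 0.993). On the other probe set of SLC31A1 the signals were 100.3, 88.8 and 100.6 against 103, 123 and 116, also without overlap, with a smaller log2 difference of 0.24. The related SLC31A2 lay on the opposite side, at -0.23 and -0.26 on its 2 probe sets.

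SLC33A1, which brings acetyl-CoA into the endoplasmic reticulum and Golgi, was measured by 4 probe sets, all of the same gene, and all had a positive log2 difference, from 0.22 to 0.51. On the probe set with the largest difference the signals were 58.0, 76.1 and 66.5 in the Large White breed against 97.2, 103 and 84.2 in the Chinese Erhualian breed (log2 0.51, SE 0.17, adjusted p = 0.993). The breeds did not overlap on this probe set or on the one with a log2 difference of 0.31, and overlapped on the others. The probe set with the largest difference had the lowest signal of the 4. The one with the highest signal, with means of 318 and 370, had the smallest difference, 0.22.

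**Figure D1:**
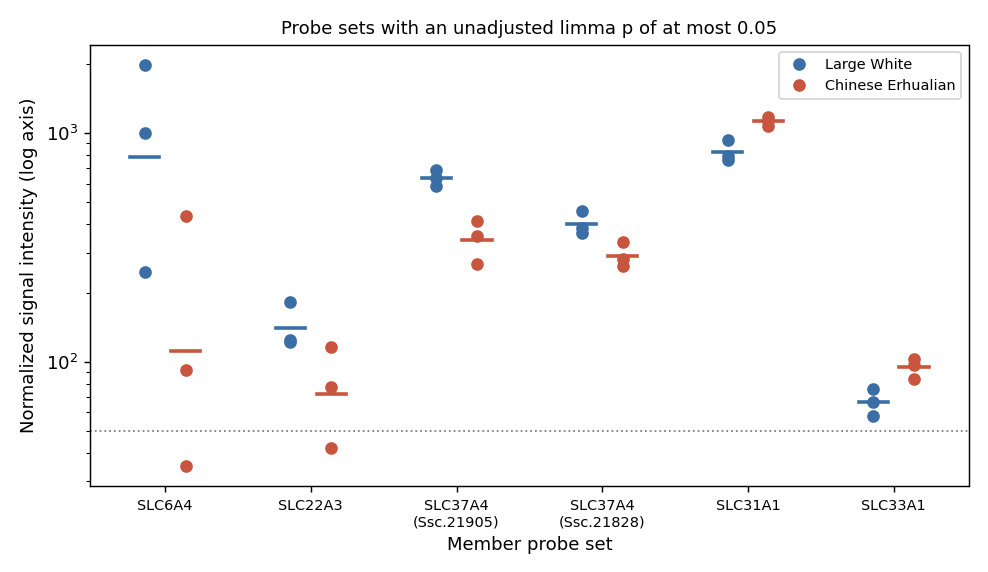
Normalized signal intensity (log axis) of the 6 carrier probe sets with an unadjusted limma p of at most 0.05, in order of the log2 difference. Each point is 1 sow, each line the geometric mean of 3 sows, and the dotted line marks a signal of 50; both SLC37A4 probe sets lie lower and SLC31A1 and SLC33A1 higher in Chinese Erhualian sows without overlap, while SLC6A4 overlaps.

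Beside these, 8 further probe sets of 7 genes, all chosen after their values were seen, were without overlap at a limma p above 0.05. SLC3A1, the heavy subunit of a cystine carrier (log2 0.39), and SLC4A4, a sodium bicarbonate cotransporter (log2 0.39), were higher. On a second SLC3A1 probe set, of higher mean signal, the breeds overlapped (log2 0.50). SLC25A38, the mitochondrial glycine carrier (log2 -0.47), and 1 of the 3 probe sets of SLC44A2, a choline carrier (log2 -0.16), were lower. A second SLC25A38 probe set overlapped between the breeds (log2 -0.32). The other two SLC44A2 probe sets overlapped and had log2 differences of -0.26 and 0.11. SLC31A1 and SLC33A1 were each there with a further probe set. SLC39A1, a zinc importer, was without overlap on both of its probe sets and in opposite directions. The signals on one were 1352, 1419 and 1339 in the Large White breed against 1067, 1301 and 1175 in the Chinese Erhualian breed (log2 -0.22). On the other, whose name ends in _s_at, they were 2200, 2224 and 2173 against 2910, 2281 and 2344 (log2 0.18). This suffix marks a probe set whose probes can match more than 1 transcript.

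The paper's list names 2 more solute carriers on probe sets that carry no symbol in the probe table and are no members. The probe set it names SLC20A1, a phosphate carrier, had signals of 543, 749 and 394 in the Large White breed against 139, 397 and 190 in the Chinese Erhualian breed. The breeds overlapped there (log2 -1.31, SE 0.44, adjusted p = 0.993). The probe set it names SLC4A4 had 157, 115 and 146 against 572, 223 and 341 (log2 1.35, SE 0.36, adjusted p = 0.993), without overlap. The SLC4A4 probe set of the probe table had 247, 207 and 186 against 283, 257 and 292, a difference in the same direction and smaller. Both probe sets of that list were chosen on these same samples, so their direction is not independent evidence.

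By transport class, the breed medians of the larger groups stayed near 0. The median log2 difference was -0.07 over 26 mitochondrial carrier probe sets, 0.00 over 21 of amino acid carriers, 0.00 over 12 of sugar carriers and 0.10 over 12 of zinc carriers. Of the 26 mitochondrial carrier probe sets 17 lay below 0, and 10 of the 12 zinc carrier probe sets above 0. Over all 19196 tested probe sets 9547 lay below and 9649 above 0. These class counts take probe sets of 1 gene as separate, for 21 mitochondrial and 8 zinc carrier genes, and were not tested. Among 16 probe sets of vitamin, choline and fatty acid carriers the median was 0.06, and among 12 of sodium, proton, chloride and bicarbonate exchange it was 0.04. The 11 probe sets of the vesicle, peptide and other class had a median of 0.31, of which 4 belong to SLC33A1. Of the 4 probe sets lower at an unadjusted limma p of at most 0.05, 2 were in the phosphate class, 1 in the amino acid class and 1 in the organic ion class. The 2 higher ones were in the metal class and in the vesicle, peptide and other class, and the remaining classes held none. The classes follow the family number, so single members can carry another substrate, as SLC5A6 does among the sugar carriers and SLC6A4 among the amino acid carriers.

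**Figure D2:**
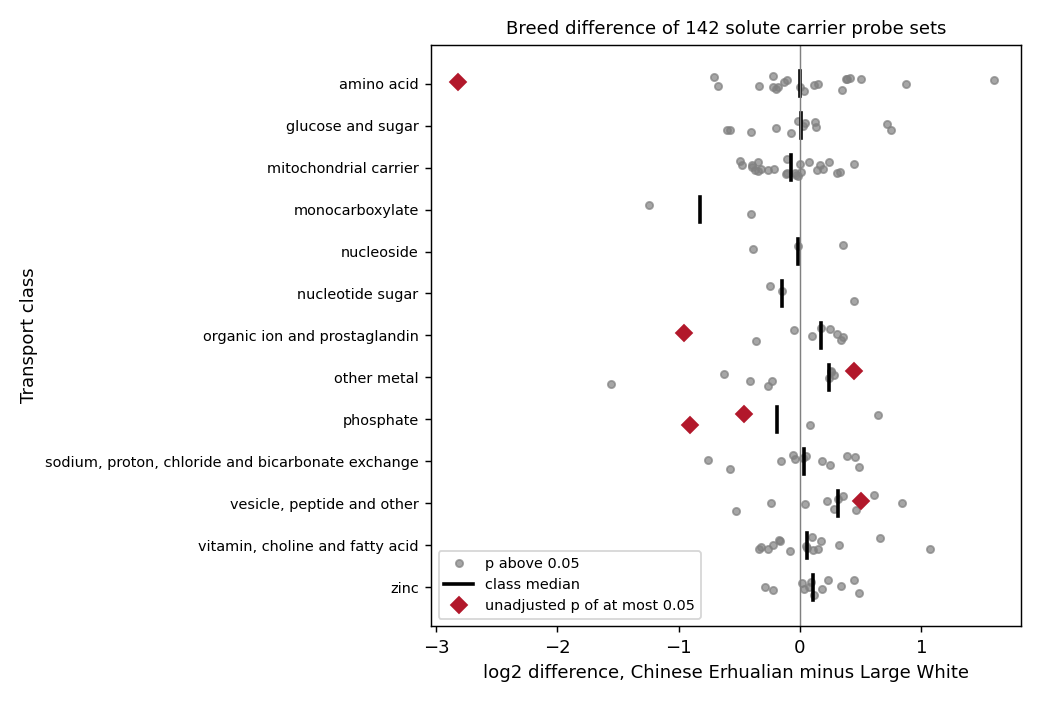
Log2 difference, Chinese Erhualian minus Large White, of the 142 solute carrier probe sets by transport class. Each point is 1 probe set, each black line the class median, and red diamonds are the 6 probe sets with an unadjusted limma p of at most 0.05; most points lie within 1 of 0.

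Single sows stood far apart for some carriers. The range over the 6 sows was at least 2 on the log2 scale for 28 of the 142 members (19.7%). The share was 10.2% over all tested probe sets and 11.0% over those with 1 symbol. A signal at least 4-fold above every other sow was found for 5 members (3.52%, background 1.69%). Of these, 3 were highest in Chinese Erhualian sow 1 (2.11%, background 1.38%), 1 in Large White sow 2 (0.704%, background 0.188%) and 1 in Large White sow 1 (0.704%, background 0.0208%). No member was at least 4-fold below every other sow. Chinese Erhualian sow 1 stood so for 0.474% of all probe sets, so small a share that 0 of 142 members is no contrast. Large White sow 3 held the highest signal of only 2.11% of the members, against 10.7% of all tested probe sets, and Chinese Erhualian sow 2 that of 24.6% against 15.6%. The single-sow steps were not replicated and carry no test.

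SLC34A2, a sodium phosphate cotransporter of epithelia, had 3310 in Chinese Erhualian sow 1 and 86.5 to 335 in the other 5 sows. The breed difference turned with this sow, from 0.65 over all arrays to -1.01 without it. SLC15A2, a proton-coupled peptide carrier, had 761 on one probe set in the same sow and 44.6 to 136 in the others. A second SLC15A2 probe set gave 607 against 61.0 to 154, and one more, below the signal rule, 824 against 17.4 to 121. SLC7A4, an orphan relative of the cationic amino acid carriers and chosen after its values were seen, had 266 against 44.0 to 54.9, and without this sow its breed difference went from 0.87 to 0.06.

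In the same sow SLC44A4, a choline-like carrier of epithelia, had 2024 against 206 to 511, and SLC9A3R1, the scaffold beneath microvilli, 4349 against 542 to 1208. SLC46A2, a carrier chosen after its values were seen, had 2421 against 473 to 783. Without this sow the breed difference of SLC44A4 went from 1.08 to 0.26 and that of SLC9A3R1 from 0.46 to -0.39. These 6 genes were high in the sow with the summed epithelial marker signal of 46824, and the part of the epithelial markers' source in them was not tested.

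SLC11A1, the metal carrier of macrophage phagosomes, had 955 in Large White sow 2 and 36.2 to 99.5 in the other 5 sows. Leukocyte markers were highest in this sow too. SLC7A7, the light chain of a cationic amino acid exchanger known from macrophages, had 1919 there on one probe set. It had 1380 in Chinese Erhualian sow 1, where leukocyte markers summed to 2283, and 343 to 607 in the other sows. On its other probe set it had 101 in Large White sow 2, 94.9 in Chinese Erhualian sow 1 and 67.8 to 79.0 in the others. SLC2A5, the fructose carrier, had 1190 in Large White sow 2 against 302 to 470 elsewhere. SLC7A7 and SLC2A5 were chosen after their values were seen. Without Large White sow 2 the breed difference of SLC11A1 changed from -1.56 to -0.43, and the part of the leukocyte markers' source in it was not tested.

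Another pattern joined Large White sow 1 and Chinese Erhualian sow 2, the sows with the highest summed signal of the theca and steroid synthesis list. Of that list's 6 genes, STAR, CYP11A1, HSD3B1 and CYP17A1 had their 2 highest signals in these sows, whereas INSL3 and LHCGR were lower in Large White sow 1 than in the other Large White sows. NR5A2, of the granulosa list, had 5110 and 3844 in these sows and 84.3 to 1686 in the others. Both stood at least 2-fold above the other 4 sows for 4 members (2.82%, background 0.792%), a grouping chosen after the values were seen. SLC25A39, a mitochondrial carrier of glutathione, had 3282 and 3014 in them and 546 to 1035 in the others. SLC41A1, a magnesium carrier, had 1625 and 1968 against 176 to 525 on one of its 4 probe sets. On its other probe sets these sows also had the 2 highest signals, by smaller steps. They had 303 and 430 against 195 to 255, 209 and 180 against 29.7 to 94.7, and 159 and 185 against 75.7 to 114. SLC26A6, an anion exchanger, had 1397 and 648 against 111 to 222. SLC2A3, a high-affinity glucose carrier, had 1883 and 1569 against 267 to 772. These genes had log2 breed differences of -0.76 to -0.41 with SE of 0.72 to 0.99, and in all 4 the lowest signal was in Chinese Erhualian sow 1. Without Chinese Erhualian sow 1 the difference was 0.03 for SLC2A3, -0.03 for SLC25A39 and 0.39 for SLC41A1, and without Large White sow 1 it was 0.19 for SLC26A6 and 0.10 for SLC25A39, so the direction of each of the 4 genes turned when 1 sow was left out. The part of the marker genes' source in these signals was not tested.

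**Figure D3:**
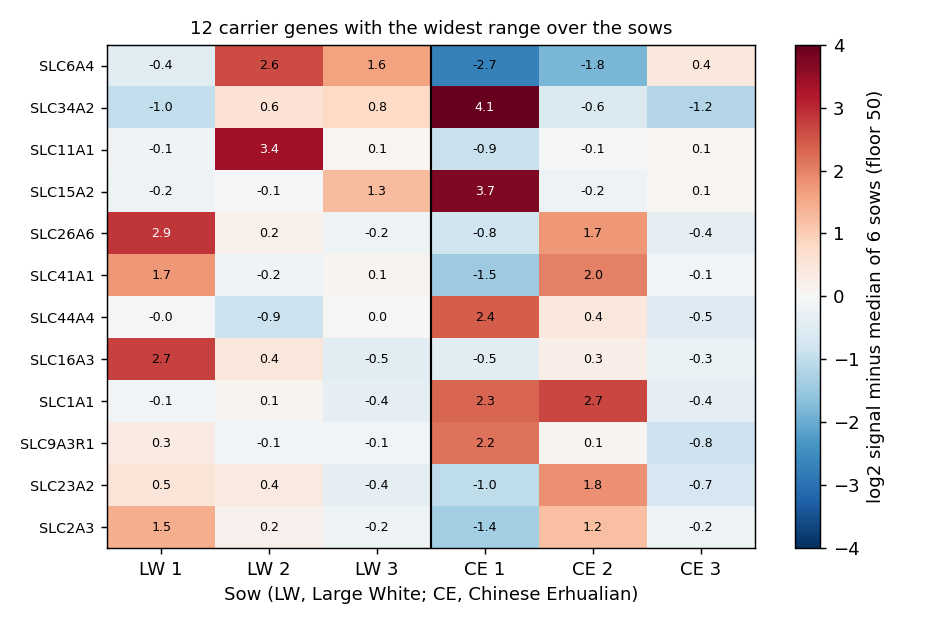
The 12 member genes with the widest range over the 6 sows, each by its probe set of highest mean signal. Colour and number are log2 signal (signals under 50 set to 50) minus the median of the 6 sows; Chinese Erhualian sow 1 is highest for SLC34A2, SLC15A2, SLC44A4 and SLC9A3R1, Large White sow 2 for SLC6A4 and SLC11A1, and Large White sow 1 with Chinese Erhualian sow 2 for SLC26A6, SLC41A1 and SLC2A3.

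Glucose carriers followed no common order over the sows. SLC2A1, the basal glucose carrier, had 605, 1108 and 290 in the Large White breed against 772, 331 and 228 in the Chinese Erhualian breed, with the breeds overlapping (log2 -0.58, SE 0.63). It was highest in Large White sow 2, while SLC2A3 was highest in Large White sow 1. SLC2A4, the insulin-regulated carrier, kept to 182 to 239 over all 6 sows (log2 -0.02, SE 0.18), and SLC2A8, a carrier of inner membranes, to 279 to 502 (log2 -0.19). SLC5A6, a sodium-coupled carrier of biotin and pantothenate chosen after its values were seen, had 776 and 1665 in Large White sow 1 and Chinese Erhualian sow 2 and 248 to 406 in the others.

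Of the lactate carriers, SLC16A3, which exports lactate, was the 1 listed for follicle nutrition that had a tested probe set. It had 458 in Large White sow 1, 93.6 and 46.9 in the other Large White sows and 32.0, 83.4 and 56.5 in Chinese Erhualian sows. The log2 difference was -1.25 (SE 0.84), and -0.32 without Large White sow 1. SLC16A13, a relative in the same family, had 152 to 219 in Large White sows against 127 to 159 (log2 -0.40, SE 0.20).

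Amino acid carriers were lowest on the median in Chinese Erhualian sow 1, at -0.37 against each gene's own median over the sows. SLC1A5, the neutral amino acid and glutamine carrier, had 1326, 2165 and 2561 in the Large White breed against 732, 1747 and 2845 in the Chinese Erhualian breed (log2 -0.34, SE 0.53, and 0.20 without Chinese Erhualian sow 1). SLC38A1, a sodium-coupled glutamine carrier, had 254, 526 and 519 against 311, 225 and 655 on one probe set, and its 3 probe sets gave log2 differences from -0.20 to 0.00. SLC3A2, the heavy chain of the SLC7 heterodimers, had 634, 617 and 379 against 770, 998 and 427 (log2 0.38, SE 0.38).

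SLC1A1, a glutamate and aspartate carrier, split the Chinese Erhualian sows. On one probe set it had 61.4, 70.2 and 44.0 in the Large White breed against 329, 418 and 38.2 in the Chinese Erhualian breed, so that sows 1 and 2 lay far above sow 3 (log2 1.60, SE 0.89, adjusted p = 0.993). On its other tested probe set the signals were 142, 130 and 114 against 195, 182 and 139, again with sow 3 lowest of the Chinese Erhualian sows and with a smaller spread (log2 0.41, SE 0.19).

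Among mitochondrial carriers, the ADP/ATP exchangers overlapped between the breeds. SLC25A6 had 9527 to 10132 in Large White and 7644 to 10440 in Chinese Erhualian sows (log2 -0.11, SE 0.14). SLC25A4 had 1783 to 2207 and 1158 to 2227 (log2 -0.40, SE 0.29). SLC25A5 had 2140 to 4773 and 1765 to 4222 (log2 -0.40, SE 0.42). These 3 genes are close in sequence, and probes may not separate them fully. SLC25A1, which exports citrate for lipid synthesis, had 4073, 1068 and 1313 against 1787, 2822 and 1148, a log2 difference of 0.01 (SE 0.58) with the highest values in Large White sow 1 and Chinese Erhualian sow 2.

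Other named members overlapped between the breeds. SLC29A1, an equilibrative nucleoside carrier, had 171, 197 and 119 against 82.9, 142 and 152 (log2 -0.39, SE 0.31). SLC27A1, a fatty acid carrier with acyl-CoA synthetase activity, had 150 to 181 against 159 to 211 (log2 0.15, SE 0.18). SLC23A2, a carrier of ascorbate, had 355 in Chinese Erhualian sow 2 and 45.6 to 143 in the others (log2 -0.17, SE 0.77). The difference was -1.08 without Chinese Erhualian sow 2 and 0.40 without Chinese Erhualian sow 1. Of 30 carriers listed for their role in follicle nutrition, 16 had a probe set with 1 symbol, and the other 14, SLC16A1 and SLC38A2 among them, were not analysed here.

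**Figure D4:**
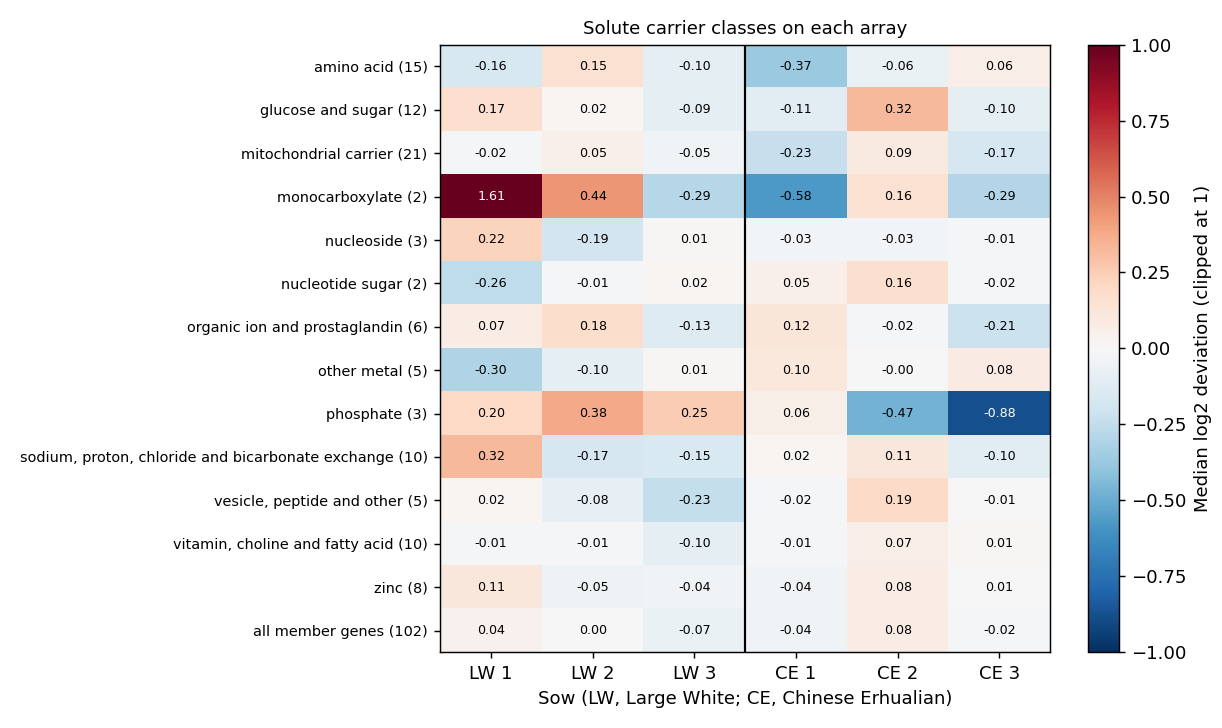
Median over the genes of each transport class (number of genes in brackets) of the log2 signal minus the gene's own median over the 6 sows, in each sow; the colour is clipped at 1. Large White sow 1 is highest for the 2 monocarboxylate carriers (1.61), Chinese Erhualian sow 2 for sugar carriers (0.32), and Chinese Erhualian sow 1 lowest for amino acid carriers (-0.37).

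Over all 102 member genes, each by its probe set of highest mean signal, the sow medians ran from -0.07 in Large White sow 3 to 0.08 in Chinese Erhualian sow 2. The largest class deviations came from small classes. The 3 genes of the phosphate class had medians of 0.20 to 0.38 in the Large White sows, against 0.06, -0.47 and -0.88 in the Chinese Erhualian sows, and SLC37A4 and SLC34A2 are members of it. The 21 mitochondrial carriers had -0.23 in Chinese Erhualian sow 1 and -0.17 in sow 3, and -0.05 to 0.09 elsewhere. The 8 zinc carriers stayed within -0.05 and 0.11.

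Of 30 genes with at least 2 member probe sets, 21 had log2 differences of 1 sign and 9 of both, and the median gap between the lowest and highest was 0.24. SLC41A1 had the 4 values -0.63, -0.41, 0.26 and 0.28, and SLC1A1 the widest gap, 1.19.

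**Figure D5:**
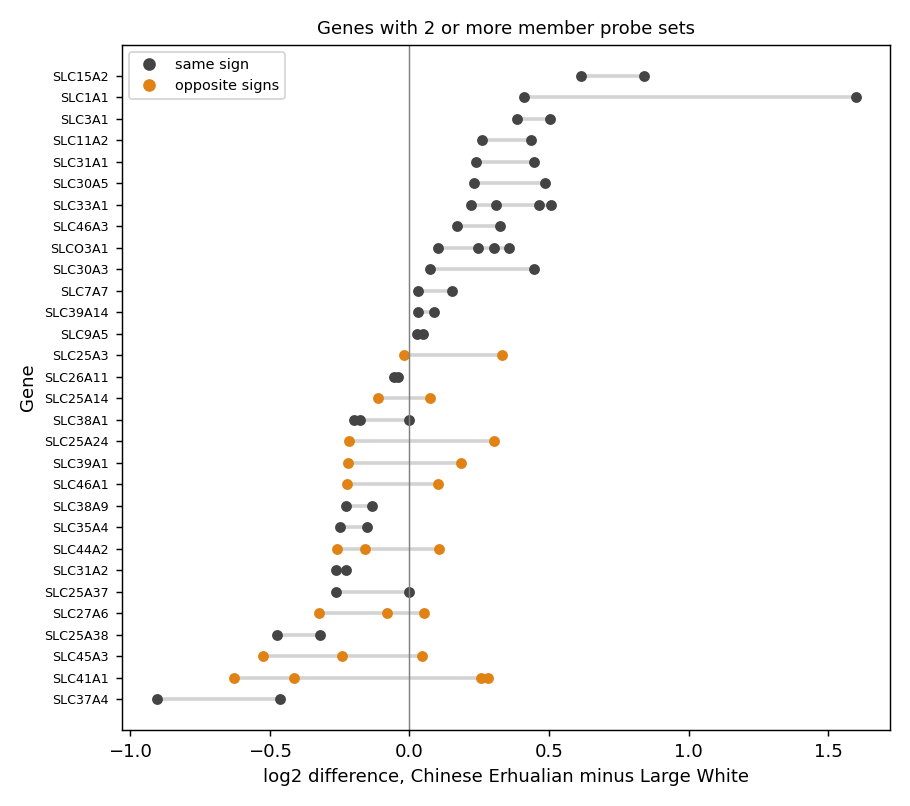
Log2 difference, Chinese Erhualian minus Large White, for each probe set of the 30 genes with at least 2 member probe sets. Points of 1 gene are joined, and orange marks the 9 genes whose probe sets lie on both sides of 0; SLC37A4 is lowest and SLC15A2 and SLC1A1 are highest.

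Genes that work beside the carriers were compared from lists: the sodium pump, whose ion gradient drives many carriers, chaperones of the lactate carriers and the mitochondrial pyruvate carrier, aquaporins, and ABC transporters. Of their 43 tested probe sets of 29 genes, 0 were higher and 1 lower at an unadjusted limma p of at most 0.05 (2.33%, against 2.30% of all tested probe sets called lower), 0 had an adjusted p below 0.05, and the median log2 difference was 0.01. The lower one was ABCA1, which exports cholesterol to apolipoproteins, with 265, 1371 and 631 in the Large White breed against 65.9, 197 and 151 in the Chinese Erhualian breed, without overlap (log2 -2.29, SE 0.68, adjusted p = 0.993). ATP1B1, a beta subunit of the sodium pump, had 5137 and 3273 in Chinese Erhualian sows 1 and 2 and 1309 to 1558 in the other 4 sows (log2 0.91, SE 0.48). SLC1A1 also had its highest signals in Chinese Erhualian sows 1 and 2, a match picked after the values were seen. The share of all probe sets with this split was not counted. The count of 1 became 4 without Chinese Erhualian sow 1 (9.30%, background 3.66%), 4 without Chinese Erhualian sow 3 (9.30%, background 4.28%) and 2 without Chinese Erhualian sow 2 (4.65%, background 6.38%).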

How the data were processed

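The deposited values are normalized signal intensities, 1 for each probe set on each array. The authors obtained them with MAS5 (version 2.3.1 in the submitters' processing notes), scaled each array to a common target and applied the invariant set normalization of dChip; the target hides differences in total RNA. Of 24123 probe sets 188 controls were left out. After a floor of 1, log2 signals of the probe sets exceeding 50 on 3 or more arrays were fitted on breed with limma 3.58.1 (R 4.3.3, variance trend, 2-sided, Benjamini-Hochberg). Exact permutation tests used the log2 signals. The limma p-values set the breed difference against the spread between sows, pooled in part over probe sets. No p-value separates breed from farm. Genes were named by the array's probe table; no symbol differed from RefSeq, in which 169 of the 171 matched probe sets had a gene ID. Sequences are not printed here.

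Members, classes and lists were chosen with earlier results of these data known. Named genes were every member with an unadjusted limma p of at most 0.05, the 12 member genes of widest range, the carriers in the paper's list of transcripts, and 30 carriers listed for follicle nutrition; further genes were picked once the values were known. The procedure was tested on simulated data. Alternatives were other normalizations, filters, an offset, a constant prior variance, array weights, a replicate block, the methods' t-test, other choices of members and each array left out. Tools were Python 3.11.15, pandas 2.3.3, numpy 2.4.6 and matplotlib 3.10.9.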

Additional observations from a re-analysis of the deposited data

How the results depend on the processing

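The count of members at an unadjusted limma p of at most 0.05 was 4 to 9 under the alternatives that kept all arrays (9 with array weights, 6 in the reported fit), and 3 to 9 when 1 array at a time was left out, with 3 without Large White sow 1 or Large White sow 2 and 9 without Chinese Erhualian sow 3, where the balance turned to 6 higher and 3 lower. The methods' t-test on all arrays gave 4 higher and 2 lower, the reverse of the reported fit. No alternative gave a member with an adjusted p below 0.05. The median log2 difference of the members was 0.01 to 0.05 with all arrays and -0.048 to 0.088 with 1 array left out, so its sign rests on single sows. It was -0.035 without Large White sow 3 and -0.048 without Chinese Erhualian sow 2. The count among the partner genes was 1 under the alternatives that kept all arrays and 1 to 4 with 1 array left out. The deviations of the same-numbered sows correlated at -0.17, -0.14 and 0.27 (r across probe sets), and those of differently numbered sows at -0.48 to 0.51. These values do not show a pairing by array number. They cannot exclude one either, since the sows differed widely in other ways. A replicate block thus rests on the number alone. With it the count of members at p of at most 0.05 was 4, the median stayed at 0.03 and the partner count at 1. None of the 6 members at this p turned its sign under any alternative run, and all but the SLC37A4 probe set with a log2 difference of -0.90 lost this p under at least 1. Quantile normalization moved the median deviation of vitamin, choline and fatty acid carriers in Chinese Erhualian sow 1 from -0.01 to -0.065, and scaling to the median moved it to -0.054, that in Large White sow 1 from -0.01 to 0.045, and that of zinc carriers in Large White sow 1 from 0.11 to 0.20. Members at least 4-fold above the next sow numbered 5 under both scalings. Of the 32 named probe sets, 14 changed sign at least once, none of them among the 6, with 24 sign changes when 1 array was left out and 3 with all arrays. The latter were SLC38A1 on its probe set nearest 0 (0.0015 with an offset of 16, 0.16 with array weights) and SLC34A2 (-0.32 with array weights). With 1 array left out the log2 difference ran from -0.78 to 0.20 for SLC1A5, from -1.25 to 0.027 for SLC2A3, from -0.14 to 0.062 for SLC2A4, from -0.36 to 0.60 for SLC25A1, from -0.20 to 0.021 for SLC25A6, from -1.35 to 0.39 for SLC41A1, from -1.01 to 1.62 for SLC34A2, from -1.54 to 0.19 for SLC26A6, from -0.39 to 1.11 for SLC9A3R1, from -0.45 to 1.59 for SLC15A2 and from -1.08 to 0.40 for SLC23A2. On the 3 SLC38A1 probe sets it ran from -0.63 to 0.14, from -0.64 to 0.14 and from -0.26 to 0.13. The causes were not tested.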
